A study of Mus musculus with 6 samples.

Results

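A set of 10 genes that epithelial cells use for their junctions, keratin filaments and splicing was followed in cultured dermal fibroblasts, out of 41126 genes in the all-gene table of the study. They are Dsp, Perp, Dsc2, Dsg2 and Pkp2 of the desmosome, Cldn1 and Epcam of the cell surface, the keratin Krt18, and the splicing factors Esrp1 and Esrp2. All 10 were found by symbol. They were chosen by the estimated fragments and FPKM of these same libraries, GOF against Control, so their differences between the groups are given as a description with no test. FPKM, fragments scaled by transcript length and by library size, is the scale on which levels of different genes are compared, and fragments are the sequenced read pairs assigned to a gene.

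Primary fibroblasts came from the ventral dermis of postnatal day 4 mice of mixed CD1 and C57Bl6 background, 1 animal per culture. GOF cultures are named in the labels as AdCre and Ctnnb1{delta}ex3/+: Adenovirus-Cre removes exon 3 of Ctnnb1 and leaves a β-catenin protein that escapes degradation. Control cultures are named AdGFP and +/+, although the methods of the study describe the same floxed allele in cells given Adenovirus-GFP. The treatment field of the labels names adCre for every culture. The virus and the allele change together, so their parts in a difference cannot be told apart. There were 3 libraries per group from 4 animals. Control replicate 0 and GOF replicate 2 came from 1 animal, Control replicate 2 and GOF replicate 0 from another, so the 6 libraries are not all independent.

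Desmosomes are spot junctions that tie the keratin filaments of neighbouring cells together. Desmogleins and desmocollins are their cadherins and bind across the gap, plakoglobin (Jup) and plakophilins sit beneath them, and desmoplakin (Dsp) links this plaque to keratin. Tight junctions are built on claudins, membrane proteins that seal the space between epithelial cells. Esrp1 and Esrp2 are RNA-binding proteins that set epithelial exon choices in transcripts such as Fgfr2 and Cd44. Fibroblasts are mesenchymal cells, which rest on vimentin filaments and are not known for desmosomes or tight junctions.

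Across the series, the libraries held between 35980831 and 42834467 fragments. The Wnt target Axin2 averaged 0.152 ± 0.0218 FPKM (SD, n = 3) in Control and 17.5 ± 2.66 FPKM (SD, n = 3) in GOF libraries, or 6.98 in log2 by edgeR's fit, while Ctnnb1 as a whole gene stood at -0.05. None of the 4 animals gave more than 1 culture per group. Fibroblast markers were abundant in all libraries. Their summed FPKM over 13 genes was 3550 to 4467 in Control and 2810 to 3401 in GOF libraries, with the matrix gene Dcn highest in Control and the filament gene Vim highest in GOF libraries. Of these 13 markers, 4 fell (Fn1, Col1a2, Dcn and Fbn1), beside 5.64% of all tested genes, and none rose past both thresholds. Vim, Fap, Prrx1 and Cdh2 lay higher in every GOF library, with log2 fold changes of 0.70, 0.75, 0.46 and 0.46, under a fold of 2. Summed over the bulk culture, fewer cells of a type and less RNA per cell cannot be told apart.

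Sequence upstream of the start of transcription is shown for 3 of the genes that differed, 2 of them higher and 1 lower in GOF libraries. RefSeq promoters on GRCm38.p6, the assembly also named mm10, were at hand for 4 of the 10 genes, Dsp, Krt18, Cldn1 and Epcam, and missing for Perp, Dsc2, Dsg2, Pkp2, Esrp1 and Esrp2. Each run covers the bases from 250 to 51 before the start, read 5′ to 3′ on the strand of the gene. It lies at chr13:38151044-38151243 on the plus strand for Dsp, chr15:102027966-102028165 on the plus strand for Krt18, and chr16:26371890-26372089 on the minus strand for Cldn1. Capitals mark an E-box of the kind that Snail and Zeb proteins recognize.
Dsp: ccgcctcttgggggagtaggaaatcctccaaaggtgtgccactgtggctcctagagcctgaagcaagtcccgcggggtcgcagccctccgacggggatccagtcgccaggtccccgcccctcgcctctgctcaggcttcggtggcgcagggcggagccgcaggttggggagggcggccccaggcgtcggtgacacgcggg
Krt18: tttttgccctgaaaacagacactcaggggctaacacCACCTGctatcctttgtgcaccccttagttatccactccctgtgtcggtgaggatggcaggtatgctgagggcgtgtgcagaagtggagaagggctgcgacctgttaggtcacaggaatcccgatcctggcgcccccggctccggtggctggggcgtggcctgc
Cldn1: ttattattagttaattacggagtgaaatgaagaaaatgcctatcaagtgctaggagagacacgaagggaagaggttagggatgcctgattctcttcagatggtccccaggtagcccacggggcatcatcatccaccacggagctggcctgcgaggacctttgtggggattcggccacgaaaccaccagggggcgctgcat

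The full 250 bases before the start were searched on both strands. The TCF/LEF letters CTTTG, with A or T at each of the next 2 bases, were in none of the 4 promoters (0 of 4), whereas 14.8% of 32851 promoters of this length held at least 1 match. The E-box letters CACCTG occurred once upstream of Krt18 and at 2 places upstream of Epcam, and in 17.2% of all promoters. The upstream bases of Dsp were 72.4% G or C, against 60.4% for Krt18 and 55.6% for Cldn1. A match of letters is a description and not a binding site, and these windows leave out distant elements.

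Other genes are called here when they differ more than 2-fold with a Benjamini-Hochberg adjusted p under 0.05 in edgeR's quasi-likelihood test over 15462 genes. Of the 10 genes, 7 passed the filter on low counts and have estimates from that fit, which are printed without a p. By the way they were picked, 4 of them lay past these limits and higher in GOF libraries (Dsp, Perp, Esrp2 and Krt18) and 1 lower (Cldn1), beside 6.69% of all tested genes higher, 5.64% lower and 12.3% in either direction. Dsc2 and Pkp2 lay within the limits. The remaining Dsg2, Esrp1 and Epcam had too few fragments for the filter. These 5 genes also had no overlap in FPKM between the groups, as did 39.5% of all tested genes. Because the genes were picked on this contrast, nothing is read from these counts. The median log2 fold change of the 7 genes was 1.52, and that of all tested genes -0.02.

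**Figure D1:**
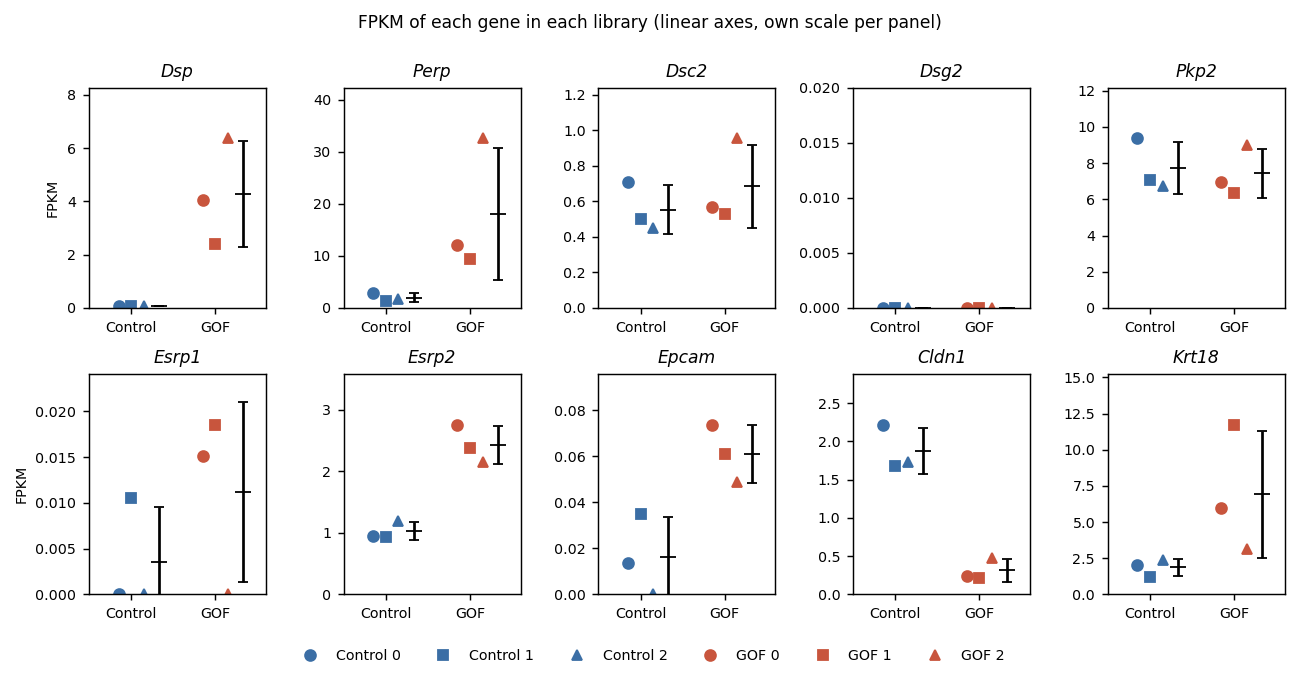
FPKM of the 10 genes (vertical axes, linear, 1 scale per panel) in the 3 Control and 3 GOF libraries, with symbols for the replicate and black bars for the mean ± SD, cut at 0. Dsp, Perp, Esrp2, Epcam and Krt18 lie higher in every GOF library, Cldn1 lies lower, Dsc2 and Pkp2 overlap, and Dsg2 is at 0 throughout.

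Dsp, on chromosome 13 from 38151294 to 38198577, encodes desmoplakin, the protein that anchors keratin to the desmosome. Its FPKM was 0.0754, 0.0768 and 0.0811 in Control replicates 0, 1 and 2, from 32, 40 and 43 fragments. In GOF replicates 0, 1 and 2 it was 4.04, 2.39 and 6.36 FPKM, from 2023, 1179 and 3205 fragments. The Control libraries lay close together, and the lowest GOF library was far above them. On average FPKM was 54.8-fold higher in GOF libraries, and the fitted log2 fold change on fragments was 5.74 (standard error, SE, 0.39). Within an animal the log2 ratio of scaled fragments was 6.41 for Control replicate 0 and GOF replicate 2, and 5.57 for Control replicate 2 and GOF replicate 0.

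Perp, on chromosome 10 from 18845020 to 18857073, encodes a small membrane protein of desmosomes that is also a target of p53. Control libraries 0, 1 and 2 were at 2.87, 1.34 and 1.77 FPKM, and GOF libraries at 12.2, 9.33 and 32.5 FPKM. GOF replicate 2 stood above the other GOF libraries, as it did for Dsp, and all 3 were above every Control library. The means were 1.99 ± 0.788 and 18.0 ± 12.7 FPKM (SD, n = 3 each), and the log2 fold change was 3.14 (SE 0.52). Without GOF replicate 2 it was 2.45. Within the 2 animals that gave both cultures the log2 ratios were 3.38 and 2.82.

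Pkp2, which encodes plakophilin 2 of the desmosomal plaque, was expressed in both groups at similar levels. It was at 9.36, 7.08 and 6.75 FPKM in Control and at 6.97, 6.35 and 8.97 FPKM in GOF libraries, and these ranges overlap. Its log2 fold change was -0.09 (SE 0.18). In Control libraries Pkp2 averaged 7.73 FPKM where Dsp averaged 0.0778 FPKM, and in GOF libraries the averages were 7.43 and 4.27 FPKM.

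Dsc2, the gene of the desmocollin 2 cadherin, was low in both groups. Its FPKM was 0.709, 0.499 and 0.450 in Control and 0.570, 0.529 and 0.953 in GOF libraries, with GOF replicate 2 the highest. The groups overlap, and the log2 fold change was 0.33 (SE 0.27). Dsg2, the gene of the desmoglein 2 cadherin, had 0 fragments in all 6 libraries, where a count of 0 allows up to 3 fragments in a library of this size. Such limits cover counting error alone, and whether the counting left Dsg2 out was not tested.

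The other desmosome genes show which parts of the junction the cultures transcribed. All 6 desmoglein genes together held between 0 and 4 fragments per library, and Dsg2, Dsg1b and Dsg3 had none in any. Jup, the plakoglobin gene, was at 7.66 to 15.5 FPKM in Control and 8.17 to 12.6 FPKM in GOF libraries. Of 13 desmosome genes outside the set, 6 could be tested and 0 were called in either direction by edgeR, DESeq2 or limma. Of all tested genes, edgeR called 12.3%. At an unadjusted p under 0.05 there were 2 in edgeR (Evpl and Pkp4) and 1 in each of the other tools (Pkp4), and the median log2 fold change of the 6 was 0.44. Evpl and Dsc3 needed the GOF libraries to pass the low-count filter, so the median is not read as a result about the list. Pkp4, a plakophilin relative also found at other junctions, passed the adjusted p but stayed under a fold of 2 (log2 difference 0.72, SE 0.13, edgeR-adjusted p = 0.00751). Pkp1, from epidermal plaques, had 3 fragments over the Control and 20 over the GOF libraries, a ratio of 6.45 with a 95% counting interval of 1.91 to 33.9. Desmoplakin, plakoglobin and plakophilin transcripts were thus present in GOF cultures, with Dsc2 as the one cadherin of the family above 0.5 FPKM on average.

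**Figure D2:**
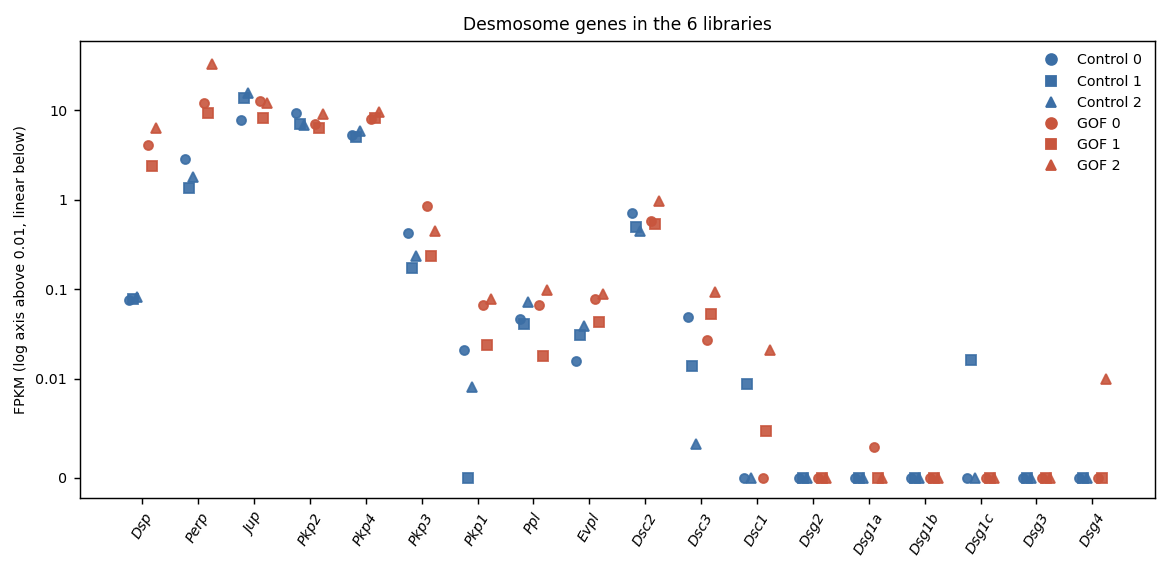
FPKM of the 5 desmosome genes of the set and 13 others in the 6 libraries (vertical axis, log above 0.01 FPKM and linear below), Control in blue and GOF in red, with symbols for the replicate. Dsp goes from between 0.0754 and 0.0811 FPKM to between 2.39 and 6.36 FPKM, Jup and Pkp2 overlap between groups, and the 6 desmoglein genes sit at or near 0.

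Krt18, on chromosome 15 from 102028180 to 102032027, encodes a keratin of simple epithelia that forms filaments with the Krt8 protein. It was at 2.02, 1.21 and 2.35 FPKM in Control and 5.96, 11.7 and 3.11 FPKM in GOF replicates 0, 1 and 2. The groups did not overlap, but GOF replicate 2, the highest for Dsp and Perp, was the lowest of its group for Krt18. The log2 fold change was 1.85 (SE 0.46), and 1.25 without GOF replicate 1. With the animal as a replicate block it was 0.99, under a fold of 2. Within the 2 animals the log2 ratios were 0.61 and 1.35.

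Krt8, the partner of Krt18, had 15, 6 and 15 fragments in Control and 24, 43 and 43 in GOF libraries. Its log2 difference of 1.54 (SE 0.46, edgeR-adjusted p = 0.0515) did not pass. Per length, Krt18 averaged 6.93 FPKM and Krt8 0.408 FPKM in GOF libraries. Of 15 other keratins, 6 were tested, with a median log2 fold change of 1.13, and 1 was called, beside 12.3% of all tested genes. Krt8 is among the 6 and needed the GOF libraries to pass the low-count filter, so the median is not read as a result about the list. The called gene was Krt20, a keratin of gut epithelium and Merkel cells. Krt20 rose from 0.564 ± 0.119 to 2.97 ± 0.612 FPKM (SD, n = 3 each), or in log2 by 2.37 (SE 0.24, edgeR-adjusted p = 0.000865). Krt19 was at 4.93, 2.88 and 1.98 FPKM in Control and 7.30, 5.24 and 15.0 FPKM in GOF libraries, highest in GOF replicate 2, and was not called (log2 difference 1.46, edgeR-adjusted p = 0.0721). The epidermal keratins Krt5, Krt14 and Krt1 had at most 7 fragments in any library.

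Cldn1, on chromosome 16 from 26356642 to 26371841, encodes claudin 1, a main claudin of the epidermal barrier, and was the gene of the set that was lower in GOF libraries. Control libraries were at 2.22, 1.68 and 1.73 FPKM and GOF libraries at 0.246, 0.213 and 0.482 FPKM, without overlap. The Control mean was 5.99-fold the GOF mean, and the log2 fold change was -2.59 (SE 0.32). Within the 2 animals the log2 ratios were -2.33 and -2.80. GOF replicate 2 was again the highest GOF library, and without it the log2 fold change was -2.96.

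Of 35 other tight junction genes in the table, 13 were tested, and their median log2 fold change was 0.53. Of the 13, 5 rose, 1 fell and 7 were not called, beside 6.69% higher and 5.64% lower of all tested genes. Cldn10 and Cldn3 passed the low-count filter only through the GOF libraries. Cldn2, with 8, 22 and 21 fragments in Control and 5, 3 and 0 in GOF libraries, did not pass it. These counts are therefore not read as a result about the list. Cldn10, a claudin that forms ion pores, rose from 1, 5 and 3 fragments in Control to 298, 211 and 149 in GOF libraries (log2 difference 6.10, SE 0.48, edgeR-adjusted p = 0.000357). Cldn3, a claudin of simple epithelia, was at 0.394, 0.152 and 0.199 FPKM in Control and 3.28, 2.53 and 1.08 FPKM in GOF libraries (log2 difference 3.10, adjusted p = 0.00584). Cgnl1 and Cxadr also rose, by 1.27 and 1.50 on the log2 scale, and are named here after their values were seen. Cldn15 fell from 1.24 ± 0.0967 to 0.347 ± 0.133 FPKM (SD, n = 3 each), which in log2 was -1.82 (edgeR-adjusted p = 0.00899). In limma on log2(FPKM + 1) it was -0.74, under a fold of 2. Occludin (Ocln), a core tight junction protein, had at most 8 fragments in a library.

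Epcam, the gene of an adhesion protein that marks most simple epithelia, was near 0 in both groups. It had 1, 3 and 0 fragments in Control and 6, 5 and 4 in GOF libraries. The ratio of the summed fragments, scaled by library size, was 3.63 with a 95% counting interval of 1.16 to 15.0. This interval does not include the spread between cultures or the choice of Epcam on these same values, so it is no test of a difference. The classical epithelial cadherin gene Cdh1 had at most 5 fragments in a library. Of 13 other adhesion and polarity genes, 6 were tested, and their median log2 fold change was 0.62. Of the 6, 1 rose and 1 fell, beside 6.69% higher and 5.64% lower of all tested genes. St14, a membrane protease of epithelia, rose (log2 difference 2.59, SE 0.53, edgeR-adjusted p = 0.0131), although without GOF replicate 0 it lost significance. In limma on log2(FPKM + 1) its log2 fold change was 0.75, under a fold of 2. Cdh3, the placental cadherin gene, fell from 7.58 ± 2.10 to 2.57 ± 0.751 FPKM (SD, n = 3 each), which in log2 was -1.59 (edgeR-adjusted p = 0.00848).

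Esrp2, on chromosome 8 from 106130319 to 106136974, was the splicing factor of the set with more than a few fragments. It was at 0.957, 0.926 and 1.19 FPKM in Control and 2.76, 2.38 and 2.15 FPKM in GOF libraries, and the GOF libraries were close to each other. The log2 fold change was 1.52 (SE 0.18) on fragments, and the FPKM means differed 2.37-fold. Within the 2 animals the log2 ratios were 1.46 and 1.55. Esrp2 overlaps Nfatc3 on the opposite strand. Nfatc3 had 1712 to 2684 fragments in Control and 2466 to 3390 in GOF libraries, and was not called (log2 difference 0.30, edgeR-adjusted p = 0.240). The libraries mark strand, but whether the counting used it is not given in the sources used here, and without it the reads of the 2 genes cannot be told apart. A short antisense gene at the same place, 1810019D21Rik, had 3 to 11 fragments in Control and 21.0 to 29.0 in GOF libraries. It was called higher (log2 difference 1.73, SE 0.47, edgeR-adjusted p = 0.0373), after passing the low-count filter only through the GOF libraries.

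Esrp1, the closely related factor, had 0, 1 and 0 fragments in Control and 2, 3 and 0 in GOF libraries. Both groups are at or under 3 fragments per library, so no fold is given. Epithelial and mesenchymal splicing differ also through other factors, of which 20 were listed and 18 tested, with a median log2 fold change of -0.16. Only Rbm38 of these 18 was called in edgeR's fit, beside 12.3% of all tested genes. Rbm38 was at 1.13 ± 0.274 FPKM in Control and 3.41 ± 0.547 FPKM in GOF libraries (SD, n = 3 each). In log2 it was higher by 1.71 (edgeR-adjusted p = 0.00672). Rbfox2 and Ptbp1, abundant factors of mesenchymal exon choice, were at 38.4 and 61.6 FPKM in Control and 36.1 and 73.3 FPKM in GOF libraries on average. Celf2 passed the adjusted p with a log2 fold change of -0.84 (edgeR-adjusted p = 0.0146), under the fold threshold.

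Exon choice itself was not read, since the tables hold 1 value per gene. At the level of the gene, 1 of 9 transcripts with exons known to be spliced by Esrp factors was called, beside 12.3% of all tested genes. The median log2 fold change of the 9 was -0.06. Cd44, a hyaluronan receptor, was at 70.0, 72.1 and 68.7 FPKM in Control and 187, 185 and 184 FPKM in GOF libraries (log2 difference 1.39, SE 0.12, edgeR-adjusted p = 0.000452). Fgfr2 was at 5.50 ± 1.46 and 7.97 ± 0.874 FPKM (SD, n = 3 each) and was not called (edgeR-adjusted p = 0.229).

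Transcription factors that govern epithelial genes were mostly near 0. Of 15 in the list, 13 averaged under 1 FPKM in both groups, and Ovol2 had no fragment. Of the 5 tested, with a median log2 fold change of 2.23, 3 rose, beside 6.69% of all tested genes. Grhl1 and Grhl3 had at most 6 fragments in a Control library and passed the low-count filter only through the GOF libraries. Klf5, with 8, 19 and 31 fragments in Control libraries, also needed the GOF libraries to pass it. The count and the median are therefore not read as results about the list. Grhl3, a factor of the epidermal barrier, had 1, 2 and 6 fragments in Control and 48, 15 and 127 in GOF libraries, highest in GOF replicate 2 (log2 difference 4.29, SE 0.91, edgeR-adjusted p = 0.0153). Its relative Grhl1 and the proliferative factor Klf5 had log2 fold changes of 2.43 and 2.23 (edgeR-adjusted p = 0.0227 and 0.0117). Grhl1 lost significance without Control replicate 1, Control replicate 2, GOF replicate 1 or GOF replicate 2, Grhl3 without Control replicate 1 and Klf5 without GOF replicate 0. In limma on log2(FPKM + 1) the log2 fold changes of Grhl1, Grhl3 and Klf5 were 0.15, 0.47 and 0.91, all under a fold of 2. Grhl1 was under it in limma on log2(FPKM + 0.1) as well, at 0.91. For Grhl3 the estimate in log2 was 3.30 without GOF replicate 2 and 5.19 without Control replicate 2. Grhl2 had at most 6 fragments, and Trp63, the master factor of stratified epithelia, likewise at most 6.

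Repressors of epithelial genes were expressed in both groups, and 1 of 6 tested was called, beside 12.3% of all tested genes. The median log2 fold change of the 6 was 0.32. Zeb1 and Zeb2, which bind E-boxes, averaged 20.3 and 28.3 FPKM in Control and 26.1 and 32.2 FPKM in GOF libraries and were not called (edgeR-adjusted p = 0.195 and 0.193). Snai2 was at 5.60 ± 0.927 and 3.61 ± 1.11 FPKM (SD, n = 3 each), also not called (edgeR-adjusted p = 0.161). Twist1 rose with a log2 fold change of 1.04 (edgeR-adjusted p = 0.00252), which was 0.92 without GOF replicate 1 and 0.96 with the animal as a replicate block, both under a fold of 2. Snai3, a relative of Snai2, had 0 fragments in the Control libraries and 15.1, 2.08 and 49.1 estimated fragments in the GOF libraries, at least 21.3-fold higher when set against a floor of 3 fragments over the Control group. Most of these fragments were in GOF replicate 2, without which the bound was 8.31-fold, and GOF replicate 1 was under the floor itself.

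Across the 9 lists together, 138 genes outside the set were named and 79 were tested, with a median log2 fold change of 0.25. Of the 79, 16 rose, 2 fell and 61 were not called, a share of 22.8% called beside 12.3% of all tested genes. The lists were chosen with earlier results of these data known. Cldn10, Cldn3, Grhl1, Grhl3 and Klf5, all called higher, also needed the GOF libraries to pass the low-count filter. So did genes that were not called, Krt8 and Evpl among them. Nothing is therefore read from the difference between these shares.

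**Figure D3:**
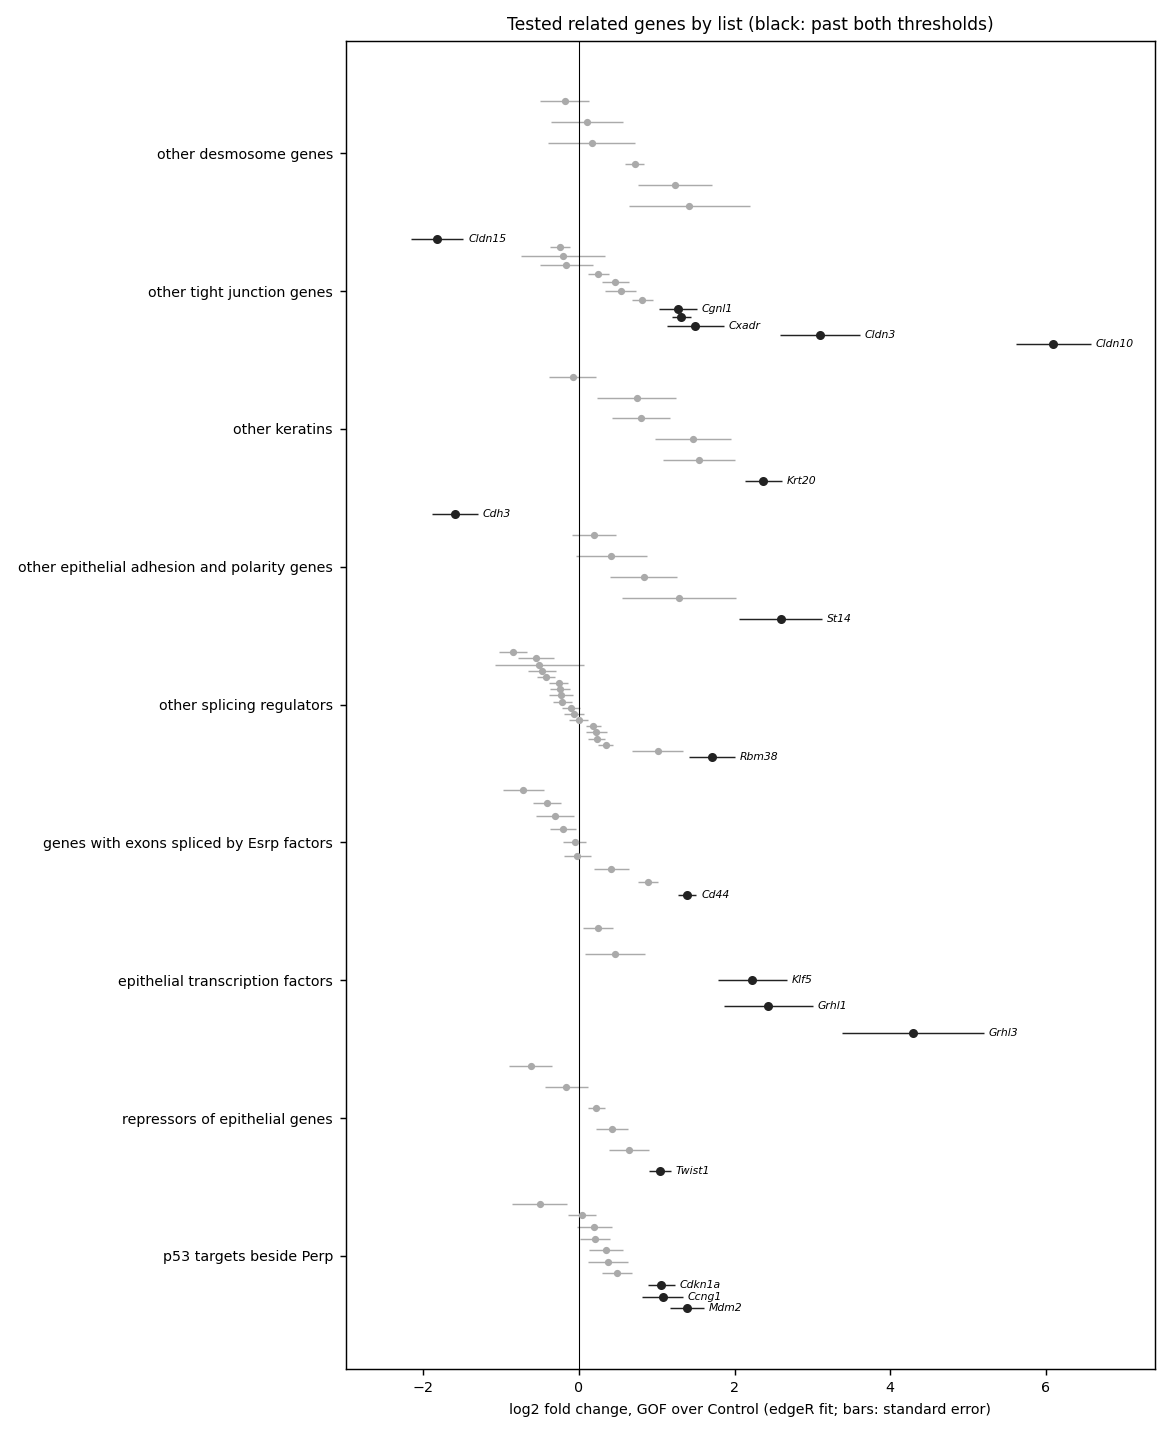
Log2 fold change, GOF over Control, with its SE (horizontal axis, edgeR fit on fragments) for the 79 tested genes of the 9 lists outside the set, 1 point per gene. Black points passed both thresholds: 16 lie to the right, up to 6.10 for Cldn10, and 2 to the left, Cldn15 and Cdh3.

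Perp is a known target of p53, and other p53 targets were set beside it. Of 10 tested, 3 rose and 7 were not called, beside 6.69% of all tested genes higher. The median log2 fold change of the 10 was 0.36. Mdm2 was at 61.0, 69.1 and 63.8 FPKM in Control and 152, 109 and 225 FPKM in GOF libraries (log2 difference 1.39, edgeR-adjusted p = 0.00487), and GOF replicate 2 was again the highest. Cdkn1a and Ccng1 had log2 fold changes of 1.06 and 1.08 (edgeR-adjusted p = 0.00537 and 0.0258). Cdkn1a was under the thresholds without Control replicate 2 or GOF replicate 0, and Ccng1 without Control replicate 1, Control replicate 2, GOF replicate 0 or GOF replicate 2. Ccng1 was also short of them in limma on log2(FPKM + 1). The part of p53 in the level of Perp was not tested.

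Markers of other cell types that a dermal culture could hold were summed in each library. Keratinocyte markers (14 in the table) added up to 1.33 to 1.88 FPKM in Control and 4.19 to 5.94 FPKM in GOF libraries. Of these, Dsg3 and Krtdap had no fragment, Krt5 and Krt14 had at most 7, while Ivl and Lor, genes of the cornified envelope, were called higher. Lor passed the low-count filter only through the GOF libraries. Of 7 keratinocyte markers tested, 2 were called, beside 12.3% of all tested genes, and 5 were not. The median log2 fold change of the 7 was 0.16. The 5 were Krt10, Col17a1 and Itgb4, with log2 fold changes of -0.08, -0.37 and -0.51, and Sfn and Lamb3, with 0.16 and 1.47. Ivl, the highest of the list in GOF libraries, where Krt10 was in Control, went from 0.316 ± 0.174 to 3.10 ± 0.803 FPKM (SD, n = 3 each). Markers of glandular epithelium summed to 3.24 to 6.38 FPKM in Control and 9.11 to 18.0 FPKM in GOF libraries. Krt19, which was not called, was the highest of these in both groups. Of 4 tested, Cldn3 was called higher, beside 12.3% of all tested genes called, after passing the low-count filter only through the GOF libraries. Krt7, Krt8 and Krt19 were not called, with log2 fold changes of 0.74, 1.54 and 1.46. Cdh1, Elf3, Elf5, Ehf and Rab25 had at most 5 fragments each.

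Mesothelium markers went from between 3.57 and 6.26 FPKM in Control to between 11.7 and 22.6 FPKM in GOF libraries. Krt19, also an epithelial keratin, was the highest of them in both groups. Krt19 and Krt8 are counted in the glandular sum as well, so the sums of the glandular and mesothelium lists are not separate observations. Of 5 tested, Msln and Bnc1 were called higher (log2 differences 4.12 and 2.47), beside 12.3% of all tested genes called. Msln, with 5, 8 and 24 fragments in Control libraries, needed the GOF libraries to pass the low-count filter. Upk1b, Krt8 and Krt19 were not called, at 1.56, 1.54 and 1.46. Lrrn4 had at most 3 fragments and Upk3b at most 9. Merkel cell markers summed to 6.03 to 8.20 FPKM in Control and 6.08 to 6.66 FPKM in GOF libraries, with Piezo2 highest in Control and Krt20 in GOF libraries. Of 5 tested, Krt20 and Isl1 were called higher and Piezo2 lower, beside 12.3% of all tested genes in either direction. Krt8 and Sox2 were not called, and Atoh1 was at 0 throughout. The part of such cells in the values of Krt18, Dsp and Perp was not tested.

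Markers of endothelium summed to 5.18 to 5.38 FPKM in Control and 4.26 to 8.00 FPKM in GOF libraries, with Tek highest in Control and Kdr in GOF libraries. Of 7 tested, Kdr and Esam were called higher (log2 differences 1.77 and 3.05) and Tek lower (-2.27), beside 12.3% of all tested genes. The 4 not called were Pecam1, Cdh5 and Vwf, at 0.78, 0.56 and 0.40, and Emcn, at -0.44. Esam, with 10, 3 and 8 fragments in Control libraries, needed the GOF libraries to pass the low-count filter. Melanocyte markers were at 6.18 to 12.6 FPKM in Control and 3.42 to 7.27 FPKM in GOF libraries. Mlana, the highest of them in Control, was called lower (log2 difference -2.48), and Mitf was the highest in GOF libraries. Mlana was the 1 called of 5 tested, beside 12.3% of all tested genes. Tyr and Sox10, at 1.33 and 0.26, and Pmel and Mitf, at -0.40 and -0.27, were not called. Macrophage markers were at 13.3 to 22.8 FPKM in Control and 10.4 to 28.7 FPKM in GOF libraries, with Lyz2 the highest in both groups. Csf1r was called higher (log2 difference 1.52), 1 of 7 tested, beside 12.3% of all tested genes. Not called were Itgam, Ptprc and Cd68, at 0.28, 0.23 and 0.20, and Lyz2, Adgre1 and Cd14, at -0.43, -0.28 and -0.01. None of the markers of these 3 cell types was at 0 in all libraries.

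**Figure D4:**
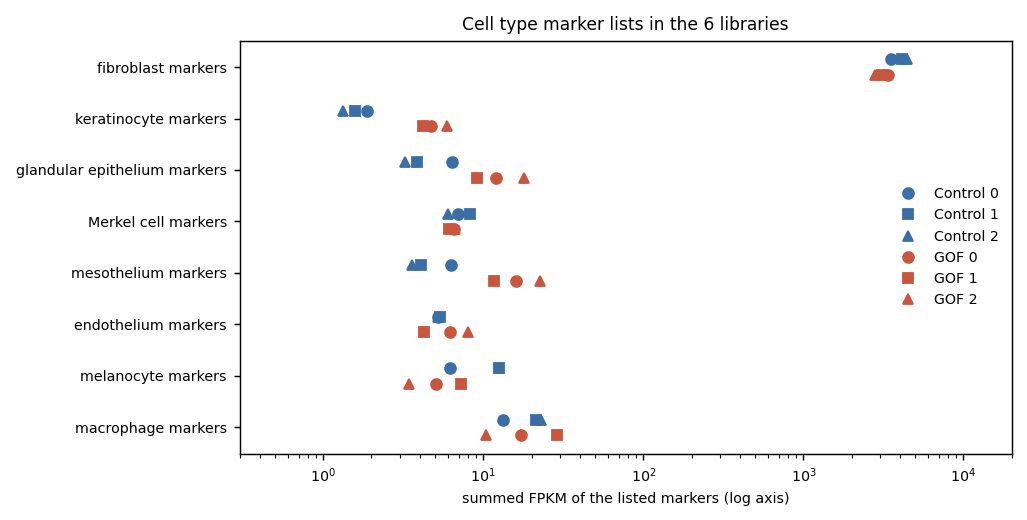
Summed FPKM of 8 marker lists (horizontal axis, log) in each library, Control in blue above GOF in red, with symbols for the replicate. Fibroblast markers sum to between 2810 and 4467 FPKM, every other list stays at or under 28.7 FPKM, and the keratinocyte, glandular and mesothelium lists lie higher in all 3 GOF libraries. The glandular and mesothelium lists share Krt8 and Krt19.

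The genes whose FPKM pattern over the 6 libraries was most like the mean of the 7 fitted genes of the set, each standardized on log2(FPKM + 0.1), were Snx7, Cgref1, Fam49b, Tmem141 and Rsu1, with Pearson r between 0.995 and 0.998. Cldn1, lower in GOF libraries, entered this mean without a change of sign and offsets part of the genes that were higher. Dsc2 and Pkp2, which overlap between the groups, are in it as well. Likeness to the mean is thus not likeness to each gene of the set. The 6 points share their groups and their normalization, so the values describe likeness of pattern in these libraries.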

How the data were processed

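Stranded, paired-end RNA-seq libraries were mapped to mm10 with TopHat and quantified with Cuffdiff by the authors, with no versions given in the sources used here. The estimated counts are fragments per gene and library, deposited without normalization. FPKM values were deposited by the authors after Cuffdiff scaled fragments by transcript length and between libraries. A further 2 columns of scaled fragments and the lncRNA table were not used.

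Symbols came from a table of gene names that matched 97.87% of 41126 gene IDs, and positions from GENCODE M21 on GRCm38. Estimated counts (4.948% not whole) were rounded, and 32 genes whose Cuffdiff status was not OK were left out. Genes were tested in R 4.3.3 with edgeR 4.0.16 (TMM, filterByExpr, quasi-likelihood test without a block, Benjamini-Hochberg over all tested genes). Standard errors were derived from the fold change and its F statistic. limma 3.58.1 and DESeq2 1.42.0 served as alternatives, besides other normalizations and filters, replicate blocks and each library left out. The script was tested on simulated data. Depth of 35980831 to 42834467 fragments limits precision for genes with few fragments.

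The set of genes and the lists were chosen with earlier results of these data known. Genes named are the whole set, Ctnnb1, Axin2, up to 4 called genes per list with the smallest adjusted p, the leading and absent cell type markers, 5 genes of like pattern, and further genes given for their role after values were seen. A few results that this rule would name are not reported here. Same-numbered libraries did not pair: correlations of their deviations were -0.392, 0.0522 and -0.390. Libraries of 1 animal correlated at 0.362 and 0.450, with the animal numbers taken from the titles.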

Additional observations from a re-analysis of the deposited data

How the results depend on the processing

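Under DESeq2 size factors, library totals, DESeq2, no filter, a minimum of 1 FPKM in 3 libraries, limma with 2 pseudocounts, both blocks and each library left out, the 5 genes of the set past the thresholds and the 16 related genes taken up by the naming rule kept their direction. Other genes named in the text were not run under these alternatives one by one. Limma on log2(FPKM + 1) called 877 genes in place of 1906, 3 genes of the set in place of 5 and 11 related genes in place of 18. There Esrp2 had a log2 fold change of 0.76. The cause was not tested. Leaving out 1 library gave between 1311 and 1961 genes, 4 to 5 of the set and 13 to 20 related genes. Of 237 values of related genes, 24 fell short of the thresholds that the reported fit passed. The counts of the set follow from its choice on this contrast. The genes that dropped from them were Krt18, which lay past the thresholds in 7 of 15 alternatives, and Esrp2, in 14 of 15. Of 104 values of the set, 7 moved by more than the spread between replicates.

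The replicate block by label number gave 1421 called genes, 4 of the set and 16 related genes. The replicate block by animal gave 2008, 4 and 20, and leaves 1 residual degree of freedom. The log2 fold change of Krt18 was 1.68 by number and 0.99 by animal. Twist1 lost its call by animal (0.96) and Ccng1 by number (log2 fold change 1.05, adjusted p = 0.0763 from edgeR). Few fragments limit Esrp1, for which no fold is given, and Epcam, whose ratio has a wide counting interval.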
